A study of Homo sapiens with 12 samples.

Results

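NFE2L2, which encodes the transcription factor NRF2, and 9 genes known as its antioxidant targets were followed through ribosome profiling (Ribo-seq) and RNA-seq of proliferating and senescent lung fibroblasts. The 10 genes were chosen by symbol from 38716 gene symbols, with their differences between the states already known, so their values between the states are given as a description, and the threshold counts printed for them only stand beside those of all genes. All 10 were among the 12787 genes tested for mRNA and the 7521 genes tested for ribosome-protected fragments.

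The cells were IMR90, normal primary human fetal lung fibroblasts, grown from the isolates I90-10 and I90-79 at passage 5. They were carried to replicative exhaustion, the state in which repeated passaging has ended division. Proliferating (Pro) and senescent (Sen) cells were each harvested as 3 independent replicas in polysome buffer with cycloheximide, which holds ribosomes on the mRNA, and every lysate was split into a Ribo-seq and an RNA-seq library, 12 libraries in all. Which isolate each replica came from is not given in the sources used here, so isolate and state cannot be told apart, and no library came from cells with altered NRF2. The Pro RNA-seq tables have a DMSO-like tag in their names, and what it stands for was not resolved.

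NRF2 is held at a low level by KEAP1, an adaptor that delivers it to a CUL3 ubiquitin ligase for destruction. When electrophiles or oxidants modify KEAP1, NRF2 escapes, pairs with a small MAF protein and binds antioxidant response elements in its target genes. Those targets supply glutathione, reduce thioredoxin and peroxiredoxins, detoxify quinones and carbonyls, break down haem and provide NADPH.

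Depth ranged from 7902427 to 14144455 mRNA-region reads per RNA-seq library and from 54421 to 1718521 coding sequence (CDS) reads per Ribo-seq library. The Ribo-seq libraries Pro 1 and Sen 2 were shallow, with 54421 and 54708 CDS reads against at least 583798 in the other 4. Only 34.4% and 15.0% of their deposited reads over all regions lay in CDS, against 54.7% to 88.8% in the other 4. In these shallow libraries the floor of 3 counts stood at 50.5 and 51.2 CPM (the library-size unit of edgeR, with TMM factors), whereas it was at most 5.66 CPM in the deep ones. Values from Pro 1 and Sen 2 are therefore shown apart. The fibroblast label held, since 6 of 6 fibroblast markers exceeded 1 CPM in every RNA-seq library. The 3 epithelial markers summed to at most 1.71 CPM and the 3 endothelial markers to at most 1.03 CPM. The leukocyte gene PTPRC stayed at or below 0.171 CPM, while CD68, a lysosomal gene that is not limited to macrophages, lay between 18.9 and 20.98 CPM in Pro and between 31.1 and 34.1 CPM in Sen.

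To show the sequence through which NRF2 acts, the core of the antioxidant response element, TGACNNNGC, was searched on both strands of RefSeq promoter windows that run from 250 bases before to 50 bases after a transcription start (GRCh38.p14, 300 bases each). Windows were at hand for 8 of the 10 genes, 10 windows in all, and HMOX1 and SLC7A11 were named only. The core was found in GCLM and TXNRD1. Across all promoter windows, 4687 of 35116 (13.3%) held it, so a match by itself is common. The 4 matches are printed with the core in capitals and 10 bases on either side, each on the strand on which the core reads forward.
GCLM, chr1:93909446-93909474, plus strand, core from 34 bases before the start: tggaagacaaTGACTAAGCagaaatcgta
TXNRD1 upstream window, chr12:104215670-104215698, plus strand: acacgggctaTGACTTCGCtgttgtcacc
TXNRD1 upstream window, chr12:104215761-104215789, minus strand: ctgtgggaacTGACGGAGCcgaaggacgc
TXNRD1 downstream window, chr12:104286920-104286948, minus strand: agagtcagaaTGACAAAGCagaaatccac
These are matches of letters and do not show binding, and a window without a match says only that these letters are not in it. GCLM and TXNRD1 had unlike mRNA differences between the states, 0.04 and −0.60 on the log2 scale.

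The mRNA of 7 of the 10 genes was lower in every Sen library than in every Pro library, that of GCLC was higher in every Sen library, and those of GCLM and SRXN1 overlapped between the states. In all genes tested, the groups of 3 did not overlap in 67.8%, made up of 33.5% with Sen above and 34.2% with Sen below. The edgeR threshold (adjusted p under 0.15) was passed by 8 of the 10, 7 lower and 1 higher, beside 73.6% of all 12787 genes (37% lower and 36.6% higher). The median log2 difference (Sen minus Pro) was −0.62 over the 10 and −0.01 over all genes. Since the genes were listed from this same contrast, nothing is read from these counts. Scaling by library totals without TMM moved the median of all genes to −0.11 and the small differences of GCLM and SRXN1 below 0 (−0.07 and −0.03). In bulk libraries, fewer cells making a transcript and less transcript per cell cannot be told apart.

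**Figure D1:**
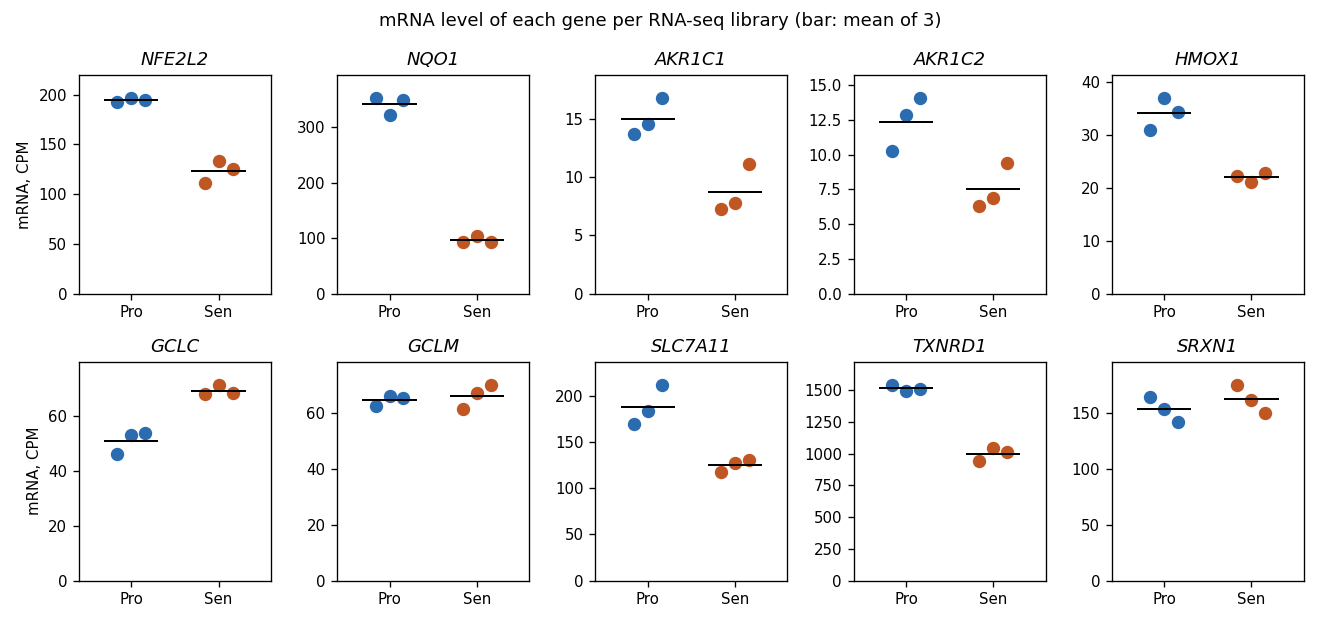
mRNA level (CPM, y axis from 0) of each of the 10 genes in the 3 Pro and 3 Sen RNA-seq libraries, with 1 point per library and a bar at the mean of 3. NQO1 shows the widest gap between the states, GCLC is the gene with Sen above Pro throughout, and the points of GCLM and SRXN1 overlap.

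NFE2L2 (chr2:178083395-178257484, minus strand, here and below on GRCh37 from GENCODE) makes NRF2 itself. Its mRNA was 193, 196 and 195 CPM in Pro 1, Pro 2 and Pro 3 and 111, 134 and 125 CPM in Sen 1, Sen 2 and Sen 3, a log2 difference of −0.66 ± 0.07 (SE). All Sen values lay below all Pro values. Its ribosome-protected fragments (RPF, the CDS reads of Ribo-seq) stood at 288 CPM in each deep Pro library (288.0 and 288.1) and at 131 and 147 CPM in Sen 1 and Sen 3, so that the deep libraries differed by −1.05 on the log2 scale. The shallow libraries gave 67.4 CPM in Pro 1, from 4 reads, and 119 CPM in Sen 2, from 7 reads, which made the groups of 3 overlap. NFE2L2 was thus lower in Sen in mRNA and in the deep RPF libraries.

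NQO1 (chr16:69740899-69760571, minus strand) encodes a quinone reductase that turns quinones into hydroquinones with NADPH, and it is widely used as a marker of NRF2 activity. Its mRNA was 352, 321 and 350 CPM (349.6 in Pro 3) in the Pro libraries and 92.9, 104 and 92.9 CPM in the Sen libraries. The mean was 341 ± 17.1 CPM in Pro and 96.5 ± 6.31 CPM in Sen (SD, n = 3), a log2 difference of −1.82 ± 0.08 (SE), with a wide gap between the groups. RPF were 573 and 590.1 CPM in Pro 2 and Pro 3 against 151 and 217 CPM in Sen 1 and Sen 3, a deep difference of −1.66. The shallow libraries gave 657 CPM in Pro 1 and 495 CPM in Sen 2, and Sen 2 therefore lay nearer to the Pro libraries than to the other Sen libraries, although below all of them. The fitted RPF difference over 6 libraries was −1.56 ± 0.19 (SE).

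TXNRD1 (chr12:104609557-104744085, plus strand) encodes the cytosolic thioredoxin reductase, a selenoprotein that keeps thioredoxin reduced. Its mRNA was 1540.3, 1496 and 1506 CPM in Pro and 941, 1042 and 1011 CPM in Sen, a log2 difference of −0.60 ± 0.07 (SE). RPF were 2391, 1646 and 1461 CPM in Pro 1, Pro 2 and Pro 3 and 1044, 1365 and 1170 CPM (1169.7) in Sen 1, Sen 2 and Sen 3. The groups did not overlap in mRNA or in RPF, shallow libraries included, and the RPF difference of −0.59 ± 0.18 (SE) was of the size of the mRNA difference. NQO1 and TXNRD1 were the 2 of the 10 genes whose RPF groups of 3 did not overlap, beside 15.7% of all 7521 genes tested with Sen below (16.8% with Sen above, 32.5% together).

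SLC7A11 (chr4:139085251-139163503, minus strand) encodes the light chain of the cystine and glutamate exchanger, which imports the cystine used for glutathione. Its mRNA was 170, 183 and 212 CPM (169.6 in Pro 1) in Pro and 118, 128 and 130.2 CPM in Sen, with no overlap and a log2 difference of −0.59 ± 0.08 (SE). RPF were 235 and 261 CPM in the deep Pro libraries and 144 and 157 CPM in the deep Sen libraries, a difference of −0.72. The shallow libraries reversed the order, with 118 CPM in Pro 1, from 7 reads, and 290.0 CPM in Sen 2, from 17 reads. The deep libraries alone thus showed SLC7A11 lower in Sen at both levels.

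GCLC (chr6:53362139-53481768, minus strand) and GCLM (chr1:94350755-94375012, minus strand) encode the catalytic and the modifier subunit of glutamate-cysteine ligase, the rate-limiting enzyme of glutathione synthesis. GCLC mRNA was 46.2, 53.1 and 53.9 CPM in Pro and 68.2, 71.4 and 68.6 CPM in Sen, a log2 difference of 0.44 ± 0.08 (SE) with all Sen libraries above all Pro libraries. GCLM mRNA was 62.6, 66.1 and 65.4 CPM in Pro and 61.6, 67.3 and 70.1 CPM in Sen, with overlapping groups and a log2 difference of 0.04 ± 0.08 (SE). The subunits of the same enzyme therefore did not share the direction that NQO1 and TXNRD1 had. GCLC RPF were 69.1 and 59.6 CPM in the deep Pro libraries, 75.4 and 79.2 CPM in the deep Sen libraries, and 101 and 119 CPM in the shallow Pro 1 and Sen 2. GCLM RPF lay between 81.1 and 118 CPM over all 6 libraries, and the states overlapped.

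SRXN1 (chr20:627259-633844, minus strand) encodes sulfiredoxin, which repairs overoxidized peroxiredoxins. Its mRNA was 165, 154 and 142 CPM in Pro and 175, 161 and 150.3 CPM in Sen, overlapping, with a log2 difference of 0.08 ± 0.08 (SE). Its RPF were low throughout, at 18.7 and 22.0 CPM in Pro 2 and Pro 3 and 44.2 and 35.8 CPM in Sen 1 and Sen 3, from 13, 38, 68 and 19 reads. The deep Sen libraries were above the deep Pro libraries by 0.98 on the log2 scale. The shallow values of 33.7 and 17.1 CPM rested on 2 reads and 1 read, under the floor, and resolve nothing.

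AKR1C1 (chr10:5005445-5025475, plus strand) and AKR1C2 (chr10:5029967-5060223, minus strand) encode aldo-keto reductases that reduce steroids, carbonyls and lipid aldehydes, and HMOX1 (chr22:35776354-35790207, plus strand) encodes the inducible haem oxygenase. AKR1C1 mRNA was 13.7, 14.5 and 16.7 CPM in Pro and 7.23, 7.76 and 11.1 CPM in Sen, and AKR1C2 mRNA was 10.2, 12.8 and 14.05 CPM in Pro and 6.27, 6.88 and 9.41 CPM in Sen. HMOX1 mRNA was 31.0, 36.9 and 34.3 CPM in Pro and 22.2, 21.2 and 22.8 CPM in Sen. All 3 genes had lower mRNA in every Sen library, with log2 differences of −0.79 ± 0.14, −0.73 ± 0.15 and −0.63 ± 0.09 (SE) in this order. No such fall was seen in their RPF, which rest on few reads. In the deep libraries AKR1C1 RPF were 28.8 and 27.2 CPM in Pro and 33.8 and 24.5 CPM in Sen, and those of AKR1C2 were 25.9 and 22.0 CPM in Pro and 28.0 and 22.6 CPM in Sen. HMOX1 RPF were 34.6 and 38.2 CPM in Pro 2 and Pro 3 and 44.2 and 37.7 CPM in Sen 1 and Sen 3. The deep libraries of the states overlapped for all 3 genes. In Pro 2, Pro 3, Sen 1 and Sen 3 the reads were 20, 47, 52 and 13 for AKR1C1 and 24, 66, 68 and 20 for HMOX1. The RPF differences fitted over 6 libraries were 0.24 ± 0.37 for AKR1C1, 0.24 ± 0.40 for AKR1C2 and 0.29 ± 0.29 for HMOX1 (SE).

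The shallow libraries stood far apart for these same 3 genes, and they did so in both states. AKR1C1 RPF were 219 CPM in Pro 1 and 273 CPM in Sen 2, from 13 and 16 reads, against at most 33.8 CPM in the 4 deep libraries. AKR1C2 RPF were 202 and 239 CPM, from 12 and 14 reads, against at most 28.0 CPM. HMOX1 RPF were 118 and 205 CPM, from 7 and 12 reads, against at most 44.2 CPM. Counted over both shallow libraries, the 29, 26 and 19 reads carry exact Poisson 95% intervals of 19.4 to 41.6, 16.98 to 38.1 and 11.4 to 29.7 reads, which cover counting error only.

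The shallow mean was 8.60 times the deep mean for AKR1C1, 8.95 times for AKR1C2 and 4.17 times for HMOX1. When all 7521 genes tested for RPF were ordered by the log2 ratio of the shallow mean to the deep mean, AKR1C2 ranked 1, AKR1C1 ranked 2 and HMOX1 ranked 6. The genes in ranks 3, 4 and 5, named after their values were seen, were WDR19, PQLC1 and BCL3, each with at most 9 reads over both shallow libraries. NQO1, GCLC and TXNRD1 lay at the 88.0, 89.4 and 85.1 percentiles of that order, SLC7A11, GCLM and SRXN1 at the 63.2, 70.6 and 44.1 percentiles, and NFE2L2 at the 9.79 percentile. AKR1C3, another aldo-keto reductase of the family and too low in the deep libraries to be tested for RPF, gave 50.5 and 85.3 CPM from 3 and 5 reads in the shallow libraries against 6.94 to 7.55 CPM in the deep ones. In RNA-seq of the same lysates these genes stood with the rest of their state, at 13.7 and 7.76 CPM for AKR1C1 and 31.0 and 21.2 CPM for HMOX1 in Pro 1 and Sen 2. The share of these libraries' reads that lay outside CDS moved with the pattern, and its part in the result was not tested.

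**Figure D2:**
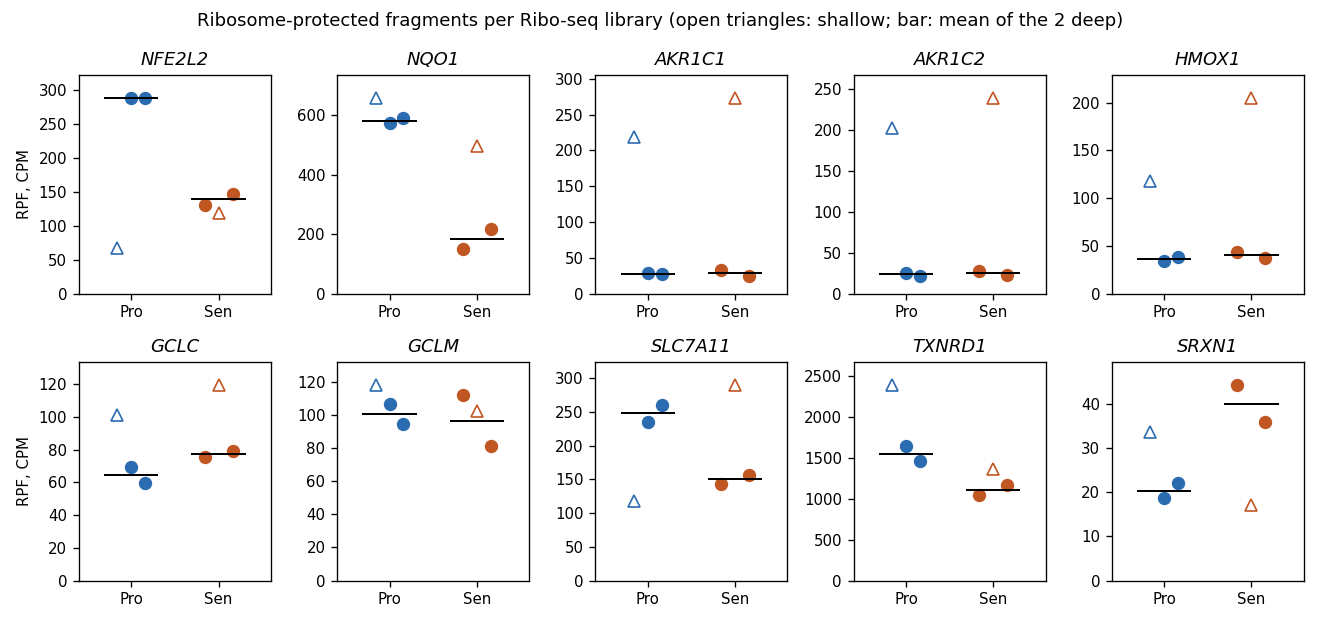
RPF level (CPM, y axis from 0) of each gene in the 6 Ribo-seq libraries, with filled circles for the deep libraries, open triangles for the shallow Pro 1 and Sen 2, and a bar at the mean of the 2 deep libraries of a state. AKR1C1, AKR1C2 and HMOX1 have both triangles far above all circles, while NFE2L2, NQO1, SLC7A11 and TXNRD1 have the Sen circles below the Pro circles.

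AKR1C1 and AKR1C2 cannot be treated as independent measurements. Their canonical coding sequences, each 969 bases long, differed at 19 positions (98.0% identical), and 635 of the 940 windows of 30 bases in AKR1C1 (67.6%), about the length of a footprint, also occurred in AKR1C2. The stretch with the most differences, coding bases 111 to 140 in coding exon 2 of either gene, is shown on the coding strand with the 6 differing bases in capitals.
AKR1C1, chr10:5008132-5008161, plus strand: cACcaaattggcaatTgaagcTggCttccG
AKR1C2, chr10:5043818-5043847, minus strand: cGTcaaattggcaatAgaagcCggGttccA
Many deposited values of these genes were fractions of a read. The ratio of AKR1C2 to AKR1C1 reads stayed between 0.755 and 0.886 in RNA-seq and between 0.813 and 0.925 in Ribo-seq over all libraries, so the pair is best read as 1 signal whose division between the genes is uncertain.

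Comparing levels between genes needs values per length, which are given here as RPF CPM per kilobase of canonical coding sequence in the deep libraries. In Pro, TXNRD1 was highest with 750.2 to 845, followed by NQO1 with 697 to 718, NFE2L2 with 159 in both libraries and SLC7A11 with 156 to 174. GCLM followed with 115 to 130 (129.7 at the upper end), SRXN1 with 45.6 to 53.5, HMOX1 with 40.0 to 44.2, GCLC with 31.2 to 36.2, AKR1C1 with 27.9 to 30.2 and AKR1C2 with 23.0 to 26.8. NFE2L2 and SLC7A11 were the only neighbours in this order whose deep values overlapped. In Sen, TXNRD1 remained highest with 536 to 601 and NQO1 held 183 to 264. GCLM with 98.7 to 136, SLC7A11 with 95.6 to 104 and SRXN1 with 87.2 to 108 overlapped, ahead of NFE2L2 with 72.0 to 81.1. HMOX1 with 43.7 to 51.2 came next in Sen, and GCLC with 39.5 to 41.5 stood above AKR1C1 with 26.0 to 35.2, which overlapped AKR1C2 with 24.0 to 28.6.

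For RPF over all 6 libraries, 5 of the 10 genes passed the edgeR threshold, 4 lower (NFE2L2, NQO1, SLC7A11 and TXNRD1) and 1 higher (SRXN1), beside 54.4% of all 7521 genes (26.9% lower and 27.5% higher). As for mRNA, nothing is read from these counts. The median log2 RPF difference was 0.13 over the 10 and −0.00 over all genes. This median had no stable sign, since it was −0.28 without Pro 3 and −0.13 without Sen 2. AKR1C1 and AKR1C2 RPF differences ranged from −0.23 to 0.69 and from −0.32 to 0.75 over the 13 alternative settings, whereas those of NFE2L2, NQO1, SLC7A11 and TXNRD1 were below 0 in all settings in which they were tested.

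**Figure D3:**
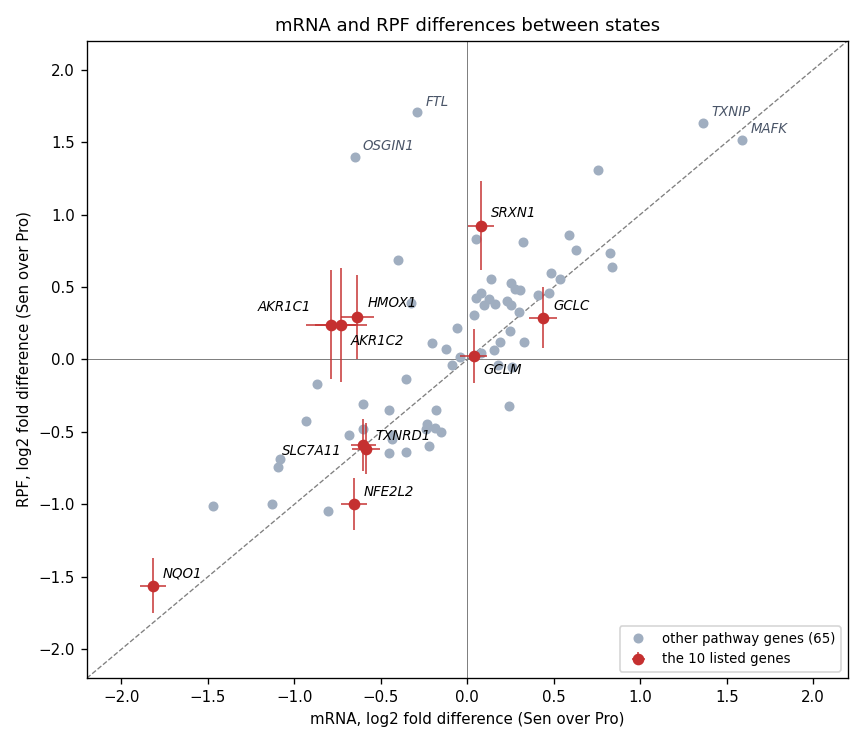
Log2 fold difference between Sen and Pro in mRNA (x axis) and in RPF (y axis), fitted over 6 libraries each. Red points with SE bars are the 10 genes, grey points are the 65 other pathway genes tested in both layers, and the dashed line marks equal differences. NQO1, TXNRD1, SLC7A11 and NFE2L2 lie in the lower left, AKR1C1, AKR1C2 and HMOX1 to the left with RPF differences above 0, and OSGIN1 and FTL stand high above the line.

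Translation efficiency (TE) sets the RPF of a lysate against its mRNA, as a log2 ratio. In all 10 genes the TE groups of 3 overlapped, beside 7.65% of all 7473 genes with Sen above Pro and 8.59% with Sen below (16.2% together). HMOX1 TE was −0.07 and 0.16 in Pro 2 and Pro 3, 0.999 and 0.757 in Sen 1 and Sen 3, and 2.02 and 3.33 in the shallow Pro 1 and Sen 2. AKR1C1 TE was 1.02 and 0.71 in the deep Pro lysates, 2.23 and 1.19 in the deep Sen lysates, and 4.05 and 5.17 in Pro 1 and Sen 2. The deep Sen lysates thus lay above the deep Pro lysates for HMOX1 and AKR1C1, as they did for AKR1C2, TXNRD1 and SRXN1, and the deep Sen lysates of NFE2L2 and SLC7A11 lay below. Among all genes the deep lysates did not overlap in 26.3% with Sen above and in 26.8% with Sen below, and nothing is read from the 5 and 2 genes here.

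The interaction model over 12 libraries gave TE differences of 0.96 ± 0.32 for HMOX1, 1.181 ± 0.435 for AKR1C1 and 1.17 ± 0.46 for AKR1C2 (SE). These 3 genes, of which AKR1C1 and AKR1C2 are 1 signal, passed the edgeR threshold upward, beside 9.37% of all genes (4.88% upward), and nothing is read from that count. All 3 calls were lost at a 5% threshold, under DESeq2, and when Pro 2, Pro 3, Sen 1 or Sen 2 was left out. NFE2L2 TE was 0.56 in Pro 2 and Pro 3 (0.555 and 0.565) and 0.23 and 0.24 in Sen 1 and Sen 3, while Pro 1 stood at −1.35 and Sen 2 at −0.06. NQO1 TE ranged from 0.76 to 0.92 in Pro and was 0.70, 2.28 and 1.23 in Sen 1, Sen 2 and Sen 3. SLC7A11, TXNRD1, GCLC and GCLM had TE differences between −0.08 and 0.08 with SE of 0.18 to 0.23. The median TE difference was 0.18 over the 10 genes and −0.01 over all genes.

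**Figure D4:**
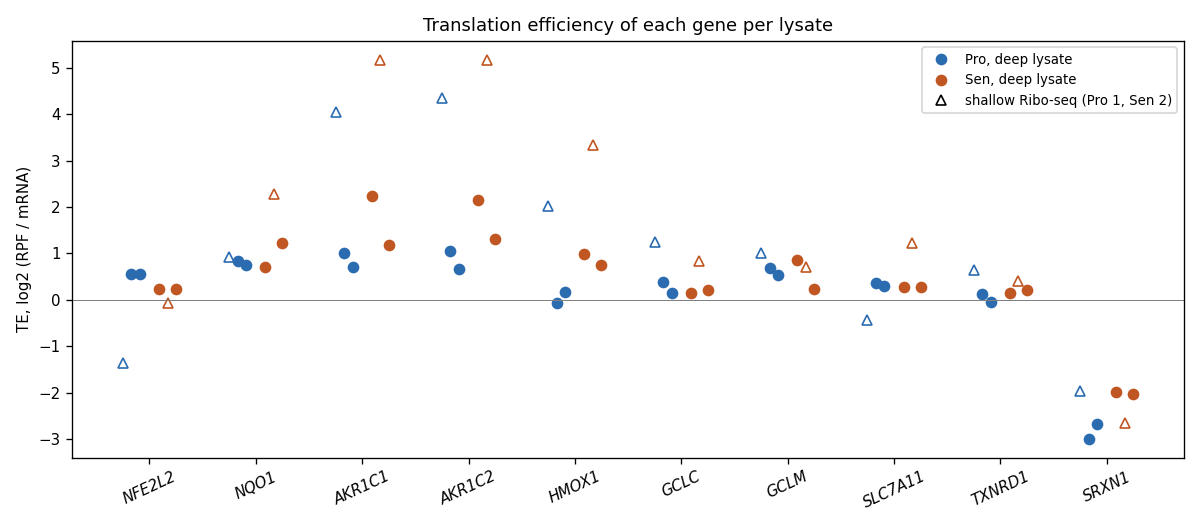
Translation efficiency (log2 RPF over mRNA, y axis) of each gene in each of the 6 lysates, with filled circles for deep lysates and open triangles for Pro 1 and Sen 2. AKR1C1, AKR1C2 and HMOX1 have Sen circles above Pro circles and both triangles higher still, and SRXN1 lies at −1.97 or less on this scale, whose mRNA counts include the 3′ UTR.

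With CDS reads in both library types and deep lysates alone, the genes could be placed among the 7473 tested for TE. SLC7A11 was at the 98.3 percentile in Pro and the 98.4 percentile in Sen, so that few genes carried more footprints for their coding reads. NQO1 was at 86.4 and 92.6, and GCLM at 85.0 and 83.4. AKR1C1 was at 76.2 and 95.97, AKR1C2 at 77.2 and 96.03, and HMOX1 at 47.5 and 89.0. TXNRD1 was at 61.0 and 69.2, NFE2L2 at 47.1 and 33.3, GCLC at 41.1 and 40.5, and SRXN1 at 10.4 and 33.5. These places rest on 2 lysates per state and are a description.

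SLC7A11 also carried footprints upstream of its coding sequence. Its 5′ UTR footprints numbered 9 and 51 in Pro 2 and Pro 3, 18 in Sen 1 and 0 in Sen 3, next to 163, 451, 221 and 83 CDS footprints. Pooled over the deep libraries this was 78 of 996 footprints, or 7.83% (Wilson 95% interval 6.32 to 9.67%), against a median of 0.921% over 6358 genes. That put SLC7A11 at the 90.4 percentile of those genes. With all genes summed, the share was 3.77% in Pro 2, 2.82% in Pro 3, 5.06% in Sen 1 and 14.5% in Sen 3, the library in which SLC7A11 had none. TXNRD1 had 2.63% (2.25 to 3.06%) from 159 of 6053 pooled footprints, above the median of 0.921% and at the 71.7 percentile of the 6358 genes. Library by library, TXNRD1 lay under the summed share in Pro 2, Sen 1 and Sen 3. In Pro 3 it lay above, with 3.03% against 2.82%. NFE2L2 had a pooled share of 1.11% (0.623 to 1.98%). AKR1C1 and AKR1C2 had none in the deep libraries, and upper Wilson limits of 2.81% and 3.32%. No test between the states was made on these shares, and the limits cover counting error only.

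The genes also differed in the share of their RNA-seq reads that lay in the 3′ UTR. SRXN1 had 80.8% ± 2.35 in Pro and 80.5% ± 1.42 in Sen (SD, n = 3), at the 98.3 percentile of 8459 genes with at least 100 reads in every RNA-seq library. SLC7A11 followed with 68.6% ± 3.67 in Pro and 71.5% ± 2.71 in Sen, and TXNRD1 with 40.4% ± 1.05 in Pro and 41.3% ± 2.29 in Sen. NFE2L2 had 1.57% ± 0.705 in Pro and 1.65% ± 0.562 in Sen. The median over all genes was 23.7% in Pro and 24.1% in Sen, and the RNA-seq reads of SRXN1 and SLC7A11 lay mostly in 3′ UTRs.

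Between the states, the 3′ UTR share of NQO1 was 14.6% ± 0.366 in Pro and 19.5% ± 0.997 in Sen, and the libraries did not overlap. AKR1C1 had 8.56% ± 0.558 in Pro and 4.85% ± 1.06 in Sen, again without overlap. AKR1C2, which is 1 signal with AKR1C1, had 8.94% ± 0.699 in Pro and 4.98% ± 0.821 in Sen. These 2 genes had between 59 and 180 reads per library, of which only 2.5 to 15.5 lay in the 3′ UTR. In Sen 1 both had 2.5 such reads, under the floor of 3 counts. The exact two-sided permutation test of 3 against 3 could not give a p below 0.1, so no p is given. In the other 7 genes the groups overlapped. How many of all genes did not overlap in this share was not counted, so nothing is read from the number of genes here.

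**Figure D5:**
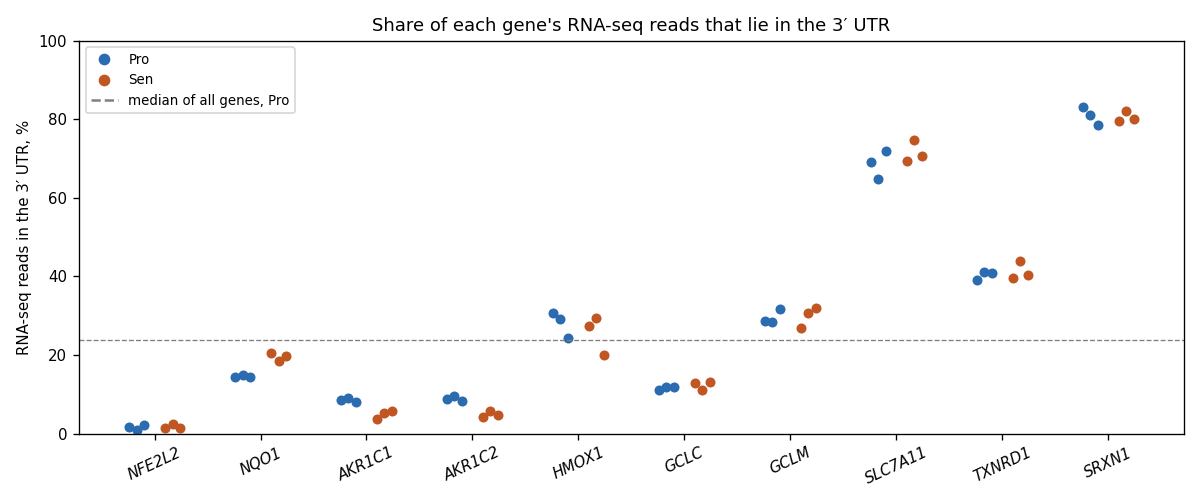
Percentage of each gene's RNA-seq reads in the 3′ UTR (y axis, 0 to 100%), with 1 point per library, and a dashed line at the median of all genes in Pro. SRXN1 and SLC7A11 stand far above the line, NFE2L2 close to 0, and NQO1 is the gene with all Sen points above all Pro points.

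Around these 10 genes, 75 further genes of the NRF2 pathway were read from 7 lists, which share no member with the 10. For mRNA 74 were tested, and 29 rose and 33 fell, beside 36.6% higher and 37% lower among all genes. For RPF 65 were tested, and 25 rose and 18 fell, beside 27.5% and 26.9%. The RPF counts became 7 and 5 under DESeq2, and 10 and 11 without Pro 3. Leaving out Sen 1 gave 15 and 10, and leaving out Pro 2 gave 9 that fell. Pathway RPF differences were fitted over all 6 libraries, shallow ones included, and in several genes called the groups of 3 overlapped. No difference between the lists was tested. The lists were chosen with earlier results of these data known.

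Among the regulators, KEAP1 did not pass the test, with 71.8 ± 1.58 CPM of mRNA in Pro and 69.0 ± 3.07 CPM in Sen (SD, n = 3) and an adjusted p of 0.49 (edgeR). CUL3, the scaffold of its ligase, fell by 0.23 in mRNA and by 0.45 in RPF on the log2 scale, and RBX1, the RING subunit of that ligase, fell by 0.15 and 0.50. BACH1, a repressor that competes for the same DNA elements, fell by 0.22 in mRNA and 0.60 in RPF. The small MAF partners rose. For MAFK the mRNA difference was 1.59 and the RPF difference 1.52, for MAFF they were 0.75 and 1.30, and MAFG mRNA rose by 0.40 with RPF too low to test. BTRC, an F-box protein of a KEAP1-independent route of NRF2 destruction, rose by 0.83 and 0.74, and NFE2L1, a related factor, rose by 0.30 and 0.48. GSK3B, the kinase that primes that route, rose by 0.16 in mRNA and had an RPF difference of 0.06. SQSTM1, an autophagy receptor that binds KEAP1, fell by 0.12 in mRNA and had an RPF difference of 0.07. In this list 6 of 11 rose and 4 fell in mRNA, beside 36.6% higher and 37% lower among all genes. In RPF 4 of 10 rose and 3 fell, beside 27.5% and 26.9%. With library totals in place of TMM the mRNA counts were 5 and 5, as GSK3B (0.05) lost its call and KEAP1 (−0.16) was called lower, and under DESeq2 no regulator passed in RPF. The mRNA calls of RBX1 under DESeq2 and of SQSTM1 with RLE factors were also lost.

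Of the enzymes that supply NADPH, 5 of 6 fell in mRNA, beside 37% of all genes. PGD and TKT of the pentose phosphate pathway fell by 1.09 and 0.93 in mRNA and by 0.69 and 0.42 in RPF. TALDO1 had an mRNA difference of 0.04 that did not pass and a rise of 0.31 in RPF (edgeR adjusted p = 0.12). In RPF 5 of 6 fell and 1 rose, beside 26.9% lower and 27.5% higher among all genes. Under DESeq2 2 fell and TALDO1 no longer passed, as it did not with library totals.

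Of 10 thioredoxin and peroxiredoxin genes 7 rose and 1 fell in mRNA, beside the 36.6% and 37% of all genes. In RPF 6 rose and 1 fell, beside 27.5% and 26.9%, and under DESeq2 3 rose and 1 fell. With library totals 6 rose and 2 fell in mRNA, since TXNRD2 lost its call and PRDX3 (−0.19) was called lower. TXNIP, which binds and inhibits thioredoxin, had the highest differences (mRNA 1.37, RPF 1.63), and TXN, thioredoxin itself, fell by 0.35 and 0.64. The rest of the genes that rose here were mostly peroxiredoxins, for example PRDX6 with 0.59 in mRNA and 0.86 in RPF. The leading members of this list in either direction thus were an inhibitor of thioredoxin and thioredoxin.

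Of 19 glutathione genes, 9 rose and 6 fell in mRNA, beside 36.6% and 37% of all genes. Of 15 tested for RPF 6 rose and 5 fell, beside 27.5% and 26.9%. With library totals 6 rose and 6 fell in mRNA, and under DESeq2 2 rose and 1 fell in RPF. GPX4, which reduces lipid hydroperoxides in membranes, fell by 1.09 in mRNA and 0.74 in RPF. GPX3, a secreted glutathione peroxidase, rose by 1.17 in mRNA from a low level of 3.66 CPM, and MGST2, a microsomal glutathione transferase, rose by 0.75 in RPF. MGST2 RPF overlapped between the states, with deep means of 20.6 CPM in Pro and 32.5 CPM in Sen, and 85.3 CPM in the shallow Sen 2. Among 17 genes of quinone, carbonyl and xenobiotic handling 12 fell and 3 rose in mRNA. In RPF 4 fell and 4 rose among 15, and under DESeq2 1 fell and 2 rose. The shares of all genes beside these counts are those given for the glutathione genes. ALDH3A2, a fatty aldehyde dehydrogenase, fell by 1.13 in mRNA, and ABCC4, an export pump, rose by 0.33 in mRNA. UGDH, which makes UDP-glucuronate, fell by 1.04 in RPF, with deep means of 287 CPM in Pro and 134 CPM in Sen. The shallow Pro 1, at 67.4 CPM of UGDH, lay below every Sen library (125 to 143 CPM).

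Of 7 haem and iron genes 5 fell and 1 rose in mRNA, beside 37% and 36.6% of all genes. Of 6 tested for RPF 3 rose, beside 27.5% of all genes, while the other 3 did not pass. Under DESeq2 4 fell and 1 rose in mRNA, and none passed in RPF. HMOX2, the constitutive haem oxygenase, rose by 0.26 in mRNA, and SLC40A1, the iron exporter ferroportin, fell by 0.79 in mRNA. FECH, which inserts iron to form haem, had an RPF difference of −0.35 that did not pass (edgeR adjusted p = 0.41). Of 4 genes for superoxide and hydrogen peroxide removal 3 rose in mRNA, with SOD3 at 0.35, beside 36.6% of all genes. In RPF 1 of 3 rose, CAT at 0.40, beside 27.5% of all genes. SOD2 had differences of −0.04 in mRNA and 0.02 in RPF and passed neither test. These superoxide counts depended on the scaling, since with library totals 1 of the 4 rose and 1 fell in mRNA, SOD1 and CAT losing their calls and SOD2 (−0.15) being called lower, and none of the 3 passed in RPF.

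TE passed the threshold in 9 of the 65 other pathway genes tested, 8 higher and 1 lower, beside 4.88% and 4.48% of all genes. FTL and FTH1, the ferritin chains whose mRNAs carry an iron-responsive element, had TE differences of 1.95 ± 0.24 and 1.03 ± 0.22 (SE), with edgeR adjusted p of 3.9e-09 and 0.0022. FTL mRNA fell by 0.29 while its RPF, fitted over 6 libraries, rose by 1.70. In the deep libraries the FTL RPF mean was 179.8 CPM in Pro and 656.5 CPM in Sen. The shallow Pro 1 stood at 656.7 CPM, above the lowest Sen library (579 CPM), so the RPF groups of 3 overlapped. FTH1 RPF overlapped as well, with up to 286 CPM in Pro and 256 to 285 CPM in Sen. The TE groups of 3 did not overlap for either gene. OSGIN1, an oxidative stress-induced gene, had a TE difference of 2.06 ± 0.40 (SE, adjusted p = 0.00031), from an mRNA fall of 0.65 and an RPF rise of 1.40. AKR1A1 and CBR1, both carbonyl-reducing enzymes, had TE differences of 0.80 and 0.67, TKT of 0.50 and PRDX2 of 0.46. AKR1A1 RPF rose by 0.83 with an mRNA difference of 0.05 that did not pass, and PRDX2 rose in both (mRNA 0.32, RPF 0.81). CBR1 and TKT instead had mRNA falls of 0.87 and 0.93. Their RPF differences were −0.17, which did not pass, and −0.42. GPX8 was the gene with lower TE, at −0.55. Ferritin reads are uncertain because of many near-identical pseudogene copies.

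These TE calls differed in how far they held. FTL kept its call in all 15 alternative settings, OSGIN1 in 13 of 14, being lost under DESeq2 alone, and FTH1 in 12 of 15. AKR1A1 kept its call in 11 of 14, CBR1 in 9 of 14 and TKT in 9 of 15, and PRDX2 and GPX8 each in 7. DESeq2 called 1 of the 65, FTL. Without Pro 2, Pro 3 or Sen 3 the number higher was 3, without Sen 1 it was 5, and without both shallow lysates it was 13.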

How the data were processed

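Ribo-seq and RNA-seq libraries were made from the same 6 lysates (3 Pro, 3 Sen), the RNA-seq part being poly(A)-enriched. Per library, the authors deposited a table of reads per gene symbol and region. These deposited values were taken to be expected counts without scaling, since most were whole and the rest simple fractions of a read. The submitters' processing notes name cutadapt 1.18, Bowtie 1.0.1, SAMtools 1.8 and DESeq2 1.22.2. Genome build, annotation, strand rule and the handling of reads with several placements are not given in the sources used here, so antisense transcripts annotated at NQO1 and GCLC could share reads with them, and fractions of reads can move between AKR1C genes.

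Groups and replicate numbers came from the sample titles. mRNA was summed over the UTRs and CDS in RNA-seq, RPF were the CDS reads in Ribo-seq, over 16451 symbols with a CDS read. Planned tests had assumed counts, and the expected counts were rounded. Tests were two-sided and quasi-likelihood (edgeR 4.0.16, run in R 4.3.3), with filterByExpr, TMM factors within each library type and Benjamini-Hochberg adjustment over all genes tested. The threshold was the study's false discovery rate of 15%. The study's own TE method was anota2seq. Here TE was the interaction of library type and state with the lysate as a block, because a portion of each lysate was set aside for RNA-seq per the protocol. Per-lysate TE added 0.5 to each count. Lysates are called independent in the labels, and p-values measure the spread between them. Pro and Sen replicates of the same number were not treated as paired.

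The 10 genes and the pathway lists were chosen with earlier results of these data known. All 10 and all regulators are named, and in the other lists the highest and lowest mRNA and RPF difference and each gene past the TE threshold, except for values that are not reported here. Coding lengths and gene positions are from GENCODE on GRCh37, promoters from RefSeq GRCh38.p14. The alternatives were RLE factors, library totals, DESeq2 1.42.0, 2 other count filters, a 5% threshold, a replicate block or none, CDS reads only in RNA-seq, and leaving out each lysate or both shallow ones. The scripts were tested on simulated data.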

Additional observations from a re-analysis of the deposited data

How the results depend on the processing

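The mRNA counts, 9413 genes overall and 29 higher and 33 lower among the other pathway genes, stayed within 1.5 times under every alternative run, and no difference past its threshold changed sign. The members' median mRNA difference moved to −0.72 with library totals in place of TMM. Under DESeq2 the RPF changes fell from 4088 to 1164 genes (7 higher and 5 lower in the pathway) and the TE changes from 700 to 28 (1 higher and 0 lower). With at least 10 counts in every library they were 605 (10 and 7) and 230 (5 and 2), and the members' median TE difference was 0.57. With every gene of at least 1 read, TE changes were 440 and 0 pathway genes were lower. At a 5% threshold they were 231 (4 and 0), and without both shallow lysates 1197 (13 higher). Leaving out 1 replicate at a time gave 2681 to 4555 RPF changes and 134 to 1154 TE changes, the lowest without Sen 1 and without Pro 2. Pathway counts then ranged from 10 to 25 higher and 9 to 18 lower in RPF, and from 3 to 9 higher and 0 to 1 lower in TE. Fewer genes and samples enter some of these fits, and the causes were otherwise not tested.

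The replicate numbers were not taken to pair Pro with Sen lysates. Deviations of same-numbered libraries from their state means correlated at 0.03, −0.10 and 0.12 in mRNA and at 0.03, 0.03 and 0.01 in RPF. Those of unlike-numbered libraries correlated at −0.17 to 0.14 in mRNA. With 3 replicas per state these values cannot decide whether lysates were paired. With the number as a replicate block, RPF changes were 2336 (14 higher and 9 lower in the pathway). Without the lysate block TE changes were 1342. The shallow libraries resolve no RPF level under about 50.5 CPM, and SRXN1 was below that in all 6 Ribo-seq libraries.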
